A study of Mus musculus with 4 samples.

Results

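The genes described here make, break down and respond to the cyclic nucleotides cAMP and cGMP. They were chosen by symbol from a written list of 42 genes, out of 55487 genes in the table, and all 42 symbols were found there once. The list holds 9 adenylyl cyclases, 16 phosphodiesterases, 6 subunits of protein kinase A (PKA), 3 PKA inhibitors, 3 Rap exchange factors, 2 cGMP-dependent kinases and 3 subunits of soluble guanylyl cyclase. Adcy5, Pde1b and Pde10a, which are typical of striatal projection neurons, were left out of the list by its rule.

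RNA was sequenced from nuclei of excitatory neurons (2 libraries) and of inhibitory neurons (2 libraries), separated by fluorescence-activated sorting. All came from wild-type (WT) adult mouse brain without the olfactory bulb and carry the same batch label. Ribosomal RNA was depleted and the library kit marks strand, per the labels' protocols. The sources used here do not give the sort markers, the age in weeks or the number of animals per library, so each p-value reflects the spread between libraries, which may be technical. Values are TPM (transcript abundance), a unit scaled for transcript length and to a common total per library, so depth is unknown.

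Adenylyl cyclases convert ATP to cAMP when stimulatory G proteins, calcium or bicarbonate activate them, depending on the isoform. Soluble guanylyl cyclase makes cGMP when nitric oxide binds it. Phosphodiesterases end both signals, each family with its own preference for cAMP or cGMP and its own control by calcium or by the nucleotides themselves. In neurons, cAMP acts mainly through PKA and the EPAC exchange factors and cGMP through protein kinase G, and these routes are known for their part in synaptic plasticity.

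The libraries largely matched their labels. Of 10 excitatory identity markers, 9 were called higher in excitatory nuclei, and Slc17a6, the subcortical vesicular glutamate transporter, went to the inhibitory side. All 9 inhibitory identity markers tested, of 10 listed, were called higher in inhibitory nuclei. Slc17a7, the cortical vesicular glutamate transporter, stood at 365 and 367 TPM in excitatory libraries and 60.2 and 52.2 TPM in inhibitory ones, and the GABA-synthesising enzymes Gad1 and Gad2 at 44.98 and 38.1 against 226 and 207 TPM and at 17.9 and 15.2 against 100.3 and 94.3 TPM. Transcripts of the other type were thus present in every library. Markers of other neuron types moved with the sort. Summed TPM was 639 and 685 in excitatory against 1967 and 2031 in inhibitory libraries for 16 striatal markers, with 14 higher in inhibitory nuclei. The 16 include Adcy5, Pde1b and Pde10a, which together held 261 and 312 TPM in excitatory and 740 and 782 TPM in inhibitory libraries. For 10 Purkinje markers the sum was 479 and 479.9 against 1005 and 1046 (8 of 10 higher in inhibitory nuclei). Sums were 178 and 173 against 327 and 306 for 10 cerebellar granule cell markers (7 of 10), and 172 and 162 against 339 and 410 for 10 thalamic markers (6 of 9 tested). No gene of these lists was listed at 0 in all libraries, though the thalamic marker Gbx2 stayed under 1 TPM in each. Among glial and vascular lists, limma called 1 of 10 astrocyte markers (higher in excitatory nuclei) and 0 of 10 oligodendrocyte (0 at an unadjusted p under 0.05), 0 of 10 microglia (1) and 0 of 5 vascular (0) markers. The part of these cell types in the differences below was not tested. In such pooled nuclei, fewer cells of a type and less RNA per cell cannot be told apart.

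Of the 42 genes, 41 passed the filter of at least 1 TPM in at least 2 libraries, and each of the 41 stood above 1 TPM in all 4 libraries. The exception was Adcy4, an adenylyl cyclase, which was listed at 0 in both excitatory libraries and stood at 0.20 TPM in 1 inhibitory library, with the other listed at 0. Excitatory and inhibitory libraries were compared with limma on log2(TPM + 1) over all 26055 genes that passed, and a gene is called higher at a Benjamini-Hochberg adjusted p under 0.05. On that test, 7 members were higher in excitatory nuclei, 6 went to the inhibitory side, and 28 were not called. That is 31.7% of the tested members, beside 12.0% of all tested genes (5.43% toward excitatory and 6.62% toward inhibitory nuclei). The members were chosen with earlier results of these data known. This share, and the share without overlap given below, therefore describe the list and test nothing about it. Which direction held more genes depended on the scaling. Quantile normalization gave 1661 genes toward excitatory and 1570 toward inhibitory nuclei (8 and 5 members), and median ratio scaling 1795 and 1563 (10 and 6 members), against 1414 and 1725 on TPM as deposited. Among the members the split also depended on the rule of the list. The 3 genes it leaves out, Adcy5, Pde1b and Pde10a, were all called toward inhibitory nuclei. The members are also well expressed, with a median percentile of 84.1 in mean TPM among all tested genes. The share called was not computed for genes matched to that level. Among the 18993 genes that reached 5 TPM in 2 or more libraries, 15.6% were called (7.13% toward excitatory and 8.45% toward inhibitory nuclei). The groups did not overlap for 35 of the 41 (85.4%), beside 56.2% of all tested genes. Both excitatory libraries were the higher ones for 18 members, beside 23.0% of all tested genes, and both inhibitory libraries for 17, beside 33.3%. The median log2 fold change, excitatory minus inhibitory throughout, was 0.01 over the tested members and -0.07 over all tested genes. Leaving out any 1 library on the same 26055 genes left 1 residual degree of freedom, and limma then called 0 genes, with between 5311 and 5812 at an unadjusted p under 0.05. All 13 called members kept their direction in each of those fits. That outcome was fixed in advance, because the groups of no called member overlapped, so it adds no support. For a single gene, the smallest p that an exact permutation of 2 against 2 can give is 0.333.

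**Figure D1:**
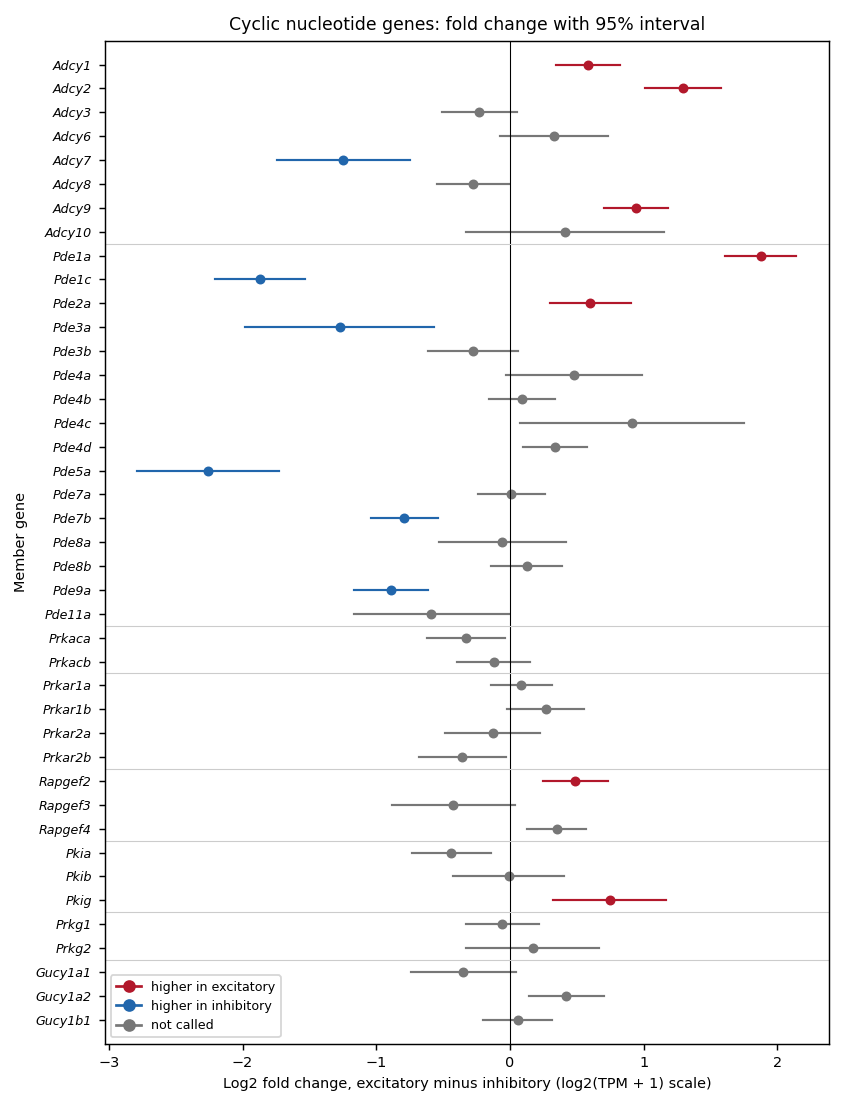
Log2 fold change of the 41 tested members on the log2(TPM + 1) scale, excitatory minus inhibitory, as points with limma's 95% intervals as bars, ordered by role and coloured by call. Adcy2, Adcy9 and Pde1a lie furthest to the right among called members, and Pde5a (-2.26) and Pde1c (-1.87) furthest to the left, while the PKA subunits gather around 0.

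**Figure D2:**
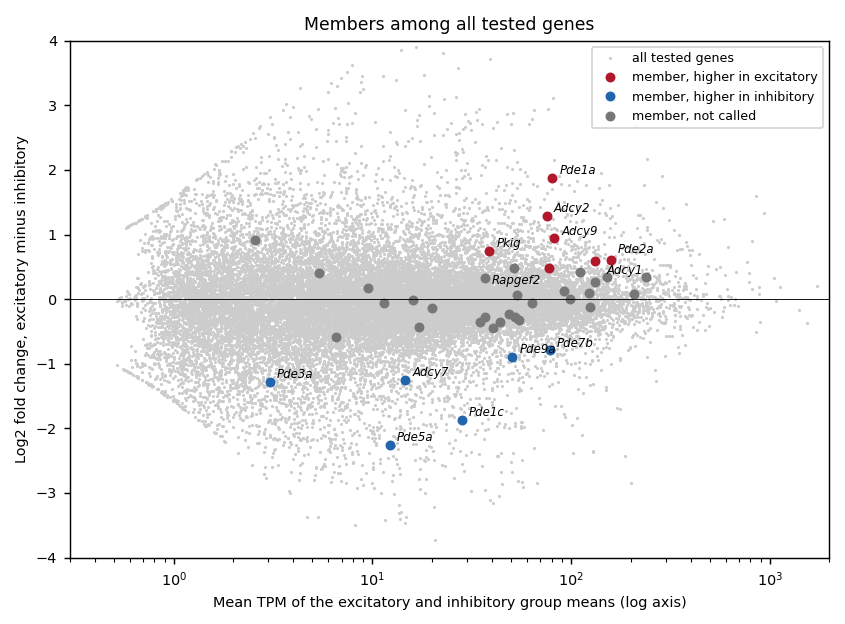
Log2 fold change against the mean of the excitatory and inhibitory group means in TPM (log axis) for all tested genes in grey, 17 of which lie outside the axes, with members as larger coloured points. Most members lie in the right part of the cloud, with 22 of 42 above a mean of 50 TPM, and called members lie on both sides of 0.

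The members lie on 18 chromosomes, and 29 of the 42 share no exon bases with another annotated gene. Their loci are long. The median span of the tested members was 109.1 kb in mm10, from 20.1 kb (Adcy6) to 1503.5 kb (Pde4d), beside 24.7 kb over the 14579 tested protein-coding genes. Shared exon bases exceeded 10% of the exonic length in 2 members. Pde2a shares 64.3% with Gm45837 on the same strand, which stood at 0 in both excitatory libraries and 0.89 and 0.25 TPM in inhibitory ones. Adcy3 shares 22.1% with Cenpo on the other strand (20.8 and 20.5 against 24.9 and 28.8 TPM). The sources used here do not say whether counting used the strand, so the value of Adcy3 is uncertain to that extent, and that of Pde2a whatever the strand.

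Since the study is about EGR1, a zinc finger factor that binds GC-rich sites, and since cAMP itself acts on genes through the cAMP response element (CRE), the promoter windows of RefSeq (GRCm38.p6, 250 bases before to 50 after each start) were searched on both strands. Windows were given for 34 of the 42 members, 74 windows in all. The letters GCGNGGGCG (EGR family) stood in 16.2% of the member windows, beside 5.55% of all 32851 windows and 10.84% of windows of tested genes with a mean of at least 10 TPM. By gene this was 11 of 34 members (32.4%), beside 6.27% of all genes with a window. A by-gene share of well-expressed genes was not computed. The 34 members had 74 windows, against 32851 windows for 27025 genes, so a member had more windows in which to match. Overlapping windows of a gene can also count a match again, as in Pde8b. The 11 were 4 of the 7 higher in excitatory nuclei (Adcy1, Adcy2, Adcy9 and Pde2a), 0 of the 4 higher in inhibitory nuclei that had a window, and 7 of the 22 not called. This split rests on few genes and was not tested. Adcy4, the other member with a window, did not pass the TPM filter and held no EGR letters. The full CRE, TGACGTCA, stood in 2.7% of member windows, beside 1.79% of all windows and 3.23% of windows of tested genes with a mean of at least 10 TPM, and belonged to Prkar1a alone among the 34. Its core TGACG, which the full CRE contains, stood in 25.7% of member windows, beside 20.81% of all windows and 31.49% of those of tested genes with a mean of at least 10 TPM. For both CRE forms the share of member windows thus lay above that of all windows and below that of the windows of well-expressed genes. For the full CRE this share rests on 2 windows, both of Prkar1a. Counted by gene, the core stood in 17 of the 34 members, beside 23.05% of all genes with a window. That count too is raised by the larger number of windows per member, and again no by-gene share of well-expressed genes was computed. A match describes the letters of a window and is not a binding site.

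The stretches below are shown because they hold every EGR or full CRE match that lies wholly before a start site. They belong to 2 members higher in excitatory nuclei (Adcy1, Pde2a) and to Pde8b and 4 PKA subunits, which were not called. Those of Pde2a, Pde8b, Prkar1b and Prkar1a lie inside the annotated span of the gene, ahead of a start downstream of where that span begins. Capitals mark the match, on the gene's strand, and each stretch runs 5′ to 3′ and ends at or before the base ahead of the start. In Prkaca the EGR letters overlap the TGACG core on the opposite strand.
Adcy1 (chr11:7063368-7063416, plus strand): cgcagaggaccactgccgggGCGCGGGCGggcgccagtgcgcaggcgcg
Pde2a (chr7:101451219-101451251, plus strand): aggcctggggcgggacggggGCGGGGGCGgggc
Pde8b (chr13:95223127-95223175, minus strand): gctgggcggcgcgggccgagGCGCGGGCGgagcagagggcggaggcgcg
Prkaca (chr8:83972945-83972977, plus strand): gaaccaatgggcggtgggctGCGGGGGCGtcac
Prkar1b (chr5:139129771-139129819, minus strand): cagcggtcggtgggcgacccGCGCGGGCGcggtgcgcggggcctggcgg
Prkar2b (chr12:32061320-32061368, minus strand): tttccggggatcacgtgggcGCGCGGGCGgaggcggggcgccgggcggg
Prkar1a (chr11:109650880-109650927, plus strand): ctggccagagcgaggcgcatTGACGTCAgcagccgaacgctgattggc

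Of the 8 adenylyl cyclases tested, 3 were higher in excitatory nuclei, 1 was called toward inhibitory nuclei and 4 missed the threshold. Adcy1, a cyclase stimulated by calcium and calmodulin (chromosome 11, 7063489 to 7178506, plus strand, mm10), stood at 153 and 166 TPM in excitatory libraries and 107 and 105 TPM in inhibitory ones. It was the most abundant cyclase of the list in all 4 libraries, and its groups did not overlap. Its log2 fold change was 0.59 ± 0.10 (SE), with a limma adjusted p = 0.0175 that became 0.0908 with an untrended variance prior. Adcy2, stimulated by G protein beta-gamma subunits (chromosome 13, 68620043 to 68999541, minus strand), stood at 105 and 111 TPM in excitatory against 46.4 and 40.6 TPM in inhibitory libraries. Both excitatory libraries were thus well above both inhibitory ones, a 2.48-fold difference of means (log2 fold change 1.29 ± 0.12, limma adjusted p = 0.00324).

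Adcy9, a widely expressed cyclase known for its weak response to forskolin (chromosome 16, 4287529 to 4420498, minus strand), stood at 108 and 109 TPM in excitatory libraries and 56.9 and 55.1 TPM in inhibitory ones. The libraries of each group lay close together, and the means differed 1.94-fold (log2 fold change 0.94 ± 0.10, limma adjusted p = 0.00464). Adcy7, another cyclase stimulated by beta-gamma subunits (chromosome 8, 88272403 to 88329962, plus strand), went the other way, with 7.20 and 9.45 TPM in excitatory against 19.8 and 22.2 TPM in inhibitory libraries. Its inhibitory mean was 2.52-fold the excitatory one (log2 fold change -1.25 ± 0.20, limma adjusted p = 0.0164, and 0.0501 without the filter on low values). The TPM of Adcy2 was 14.5 and 11.8 times that of Adcy7 in excitatory libraries and 2.34 and 1.83 times in inhibitory libraries.

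The cyclases that were not called included Adcy8, the other calcium-stimulated isoform, at 48.6 and 45.6 TPM in excitatory and 58.5 and 55.7 TPM in inhibitory libraries. Its groups did not overlap, but the log2 fold change of -0.27 had an adjusted p = 0.173 in limma and a 95% interval from -0.54 to -0.00. Adcy3, the isoform of olfactory transduction and neuronal cilia, stood at 42.5 and 47.5 against 52.7 and 53.0 TPM, excitatory first. Adcy6, which calcium inhibits, stood at 37.0 and 45.9 TPM in excitatory and 29.6 and 35.9 TPM in inhibitory libraries, and its interval reached from -0.07 to 0.73. Adcy10, the soluble cyclase that bicarbonate activates, was low, between 3.81 and 7.68 TPM over all libraries, and its groups overlapped.

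The sum over the 9 listed cyclases was 505 and 543 TPM in excitatory libraries and 376 and 371 TPM in inhibitory ones. This difference depends on which cyclases are counted. Adcy5, the main striatal cyclase, stood at 45.8 and 46.5 TPM in excitatory against 168 and 168 TPM in inhibitory libraries, and with it the sums were 551 and 589 against 544 and 539 TPM. Adcy1, Adcy2 and Adcy9 together made up 72.3% and 71.2% of the listed cyclase TPM in excitatory libraries, against 55.9% and 54.0% in inhibitory libraries. With Adcy5 counted, these shares were 66.3% and 65.6% against 38.7% and 37.2%. These 3 genes are the cyclases called higher in excitatory nuclei, so their larger excitatory share repeats those calls and is no separate result. The excess in total TPM was smaller once Adcy5 was counted. These sums and shares are descriptions without a test.

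**Figure D3:**
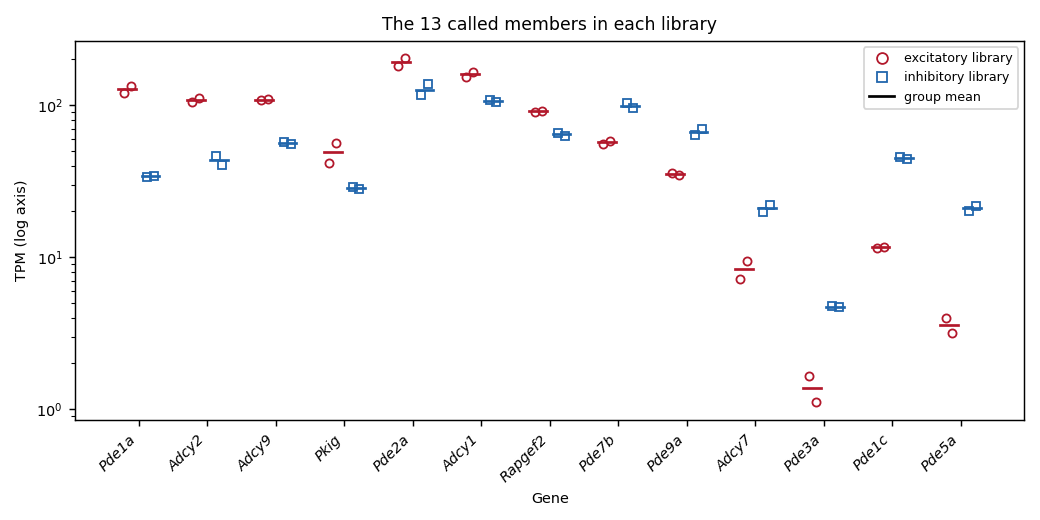
TPM (log axis) of the 13 called members, ordered by log2 fold change, with each library as an open symbol and the group mean as a bar, excitatory left of inhibitory. No called member has overlapping groups, and the order runs from Pde1a, at 120.0 and 134 TPM in excitatory libraries, to Pde5a, at 3.996 and 3.19 TPM.

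The dual-substrate phosphodiesterases, which hydrolyse both cAMP and cGMP, included paralogues of the PDE1 family that were called in opposite directions. Pde1a, activated by calcium and calmodulin (chromosome 2, 79834453 to 80129458, minus strand, mm10), stood at 120.0 and 134 TPM in excitatory libraries and 33.7 and 34.1 TPM in inhibitory ones. This was a 3.75-fold difference of means (log2 fold change 1.87 ± 0.11, limma adjusted p = 0.00156). Pde1c, its paralogue with the same activator (chromosome 6, 56069804 to 56569103, minus strand), stood at 11.5 and 11.7 TPM in excitatory against 45.8 and 44.1 TPM in inhibitory libraries. Its inhibitory mean was 3.88-fold higher (log2 fold change -1.87 ± 0.14, limma adjusted p = 0.00224). The ratio of Pde1a to Pde1c TPM was 10.5 and 11.5 in excitatory libraries and 0.74 and 0.77 in inhibitory libraries.

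The family's remaining gene, Pde1b, which belongs to the striatal markers, stood at 76.2 and 91.6 TPM in excitatory and 204 and 227 TPM in inhibitory libraries. With all 3 PDE1 genes counted, Pde1a made up 57.8% and 56.5% of the family's TPM in excitatory libraries, against 11.9% and 11.2% in inhibitory libraries. Pde1b made up 36.7% and 38.6% against 72.0% and 74.4%, and Pde1c 5.52% and 4.93% against 16.2% and 14.5%. The leading PDE1 gene by TPM was thus Pde1a in both excitatory libraries and Pde1b in both inhibitory ones. The summed Purkinje marker TPM given above was also higher in inhibitory libraries, as was the striatal sum, which itself includes Pde1b. The part of these cell types in the Pde1c and Pde1b differences was not tested.

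Pde2a, which cGMP stimulates (chromosome 7, 101421691 to 101512827, plus strand), was the most abundant listed phosphodiesterase in excitatory nuclei, at 179.8 and 204 TPM, against 116 and 137 TPM in inhibitory libraries. The groups did not overlap (log2 fold change 0.60 ± 0.13, limma adjusted p = 0.0327). That call ended when low genes were kept (0.087) or the variance prior had no trend (0.121), and exon bases shared with Gm45837 make the value uncertain. Pde3a, which cGMP inhibits and which is best known from heart and platelets (chromosome 6, 141249269 to 141507448, plus strand), was scarce, at 1.65 and 1.11 TPM in excitatory and 4.73 and 4.70 TPM in inhibitory libraries. Its log2 fold change was -1.28 ± 0.29 (limma adjusted p = 0.0417), and the call was lost with a pseudocount of 0.1 (0.0564), without the filter (0.0994) or with quantile normalization (0.0577). Its sister gene Pde3b stood at 30.3 and 36.4 against 40.3 and 40.5 TPM, excitatory first, and was not called, nor was Pde11a, at 5.35 and 4.74 TPM in excitatory against 8.69 and 7.50 TPM in inhibitory libraries.

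Of the 8 phosphodiesterases specific for cAMP, 1 was called, toward inhibitory nuclei. Pde7b (chromosome 10, 20398004 to 20725078, minus strand), a high-affinity cAMP phosphodiesterase, stood at 55.7 and 58.1 TPM in excitatory against 102 and 95.8 TPM in inhibitory libraries. Its inhibitory mean was 1.74-fold higher (log2 fold change -0.79 ± 0.10, limma adjusted p = 0.00808). Its paralogue Pde7a stood at 102 and 97.8 TPM in excitatory and 104 and 94.5 TPM in inhibitory libraries. The groups of Pde7a overlapped, and its log2 fold change of 0.01 had a 95% interval from -0.24 to 0.26.

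The Pde4 genes encode the cAMP phosphodiesterases that rolipram inhibits. Pde4d led them at 161 and 177 TPM in excitatory and 134 and 133 TPM in inhibitory libraries. Its groups did not overlap, and its log2 fold change of 0.34 ± 0.10 missed the threshold (limma adjusted p = 0.0825) but passed it with median ratio scaling (0.0273). Pde4b stood at 131 and 124 against 125 and 115 TPM, excitatory first, with overlapping groups and a 95% interval from -0.15 to 0.34 on the log2 scale. Pde4a stood at 51.7 and 68.7 TPM in excitatory and 35.8 and 50.2 TPM in inhibitory libraries, the replicates of each group lying far apart. Pde4c was scarce, at 2.79 and 4.52 TPM in excitatory and 1.08 and 1.85 TPM in inhibitory libraries (limma adjusted p = 0.151). The 4 genes together took 34.7% and 35.0% of the listed phosphodiesterase TPM in excitatory libraries and 31.9% and 31.4% in inhibitory ones. Of the high-affinity PDE8 enzymes, Pde8b stood at 96.9 and 96.2 against 83.1 and 94.3 TPM and Pde8a between 10.3 and 12.1 TPM in all libraries, and neither was called.

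Both phosphodiesterases specific for cGMP were higher in inhibitory nuclei. Pde5a, the target of sildenafil (chromosome 3, 122728947 to 122859374, plus strand), stood at 3.996 and 3.19 TPM in excitatory against 20.2 and 21.6 TPM in inhibitory libraries. It had the largest fold difference of the 41 tested members, with an inhibitory mean 5.82-fold higher (log2 fold change -2.26 ± 0.22, limma adjusted p = 0.00385). Pde9a, which has a high affinity for cGMP (chromosome 17, 31386210 to 31476310, plus strand), stood at 35.7 and 34.9 TPM in excitatory and 63.0 and 69.6 TPM in inhibitory libraries. Its inhibitory mean was 1.88-fold higher (log2 fold change -0.89 ± 0.11, limma adjusted p = 0.00781). Pde9a was the more abundant of the pair in every library, 8.93 and 10.9 times Pde5a in excitatory and 3.13 and 3.22 times in inhibitory ones. Together they took 3.97% and 3.56% of the listed phosphodiesterase TPM in excitatory libraries, against 8.95% and 9.54% in inhibitory libraries. Pde5a is also known from vascular smooth muscle and Purkinje cells. The 12 vascular markers summed to 15.0 and 15.2 TPM in excitatory and 15.4 and 14.3 TPM in inhibitory libraries, none of them listed at 0 in all 4, and 7 of them stood under 1 TPM in every library. The Purkinje marker sums, given above, were higher in inhibitory libraries, and their part in this difference was not tested.

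**Figure D4:**
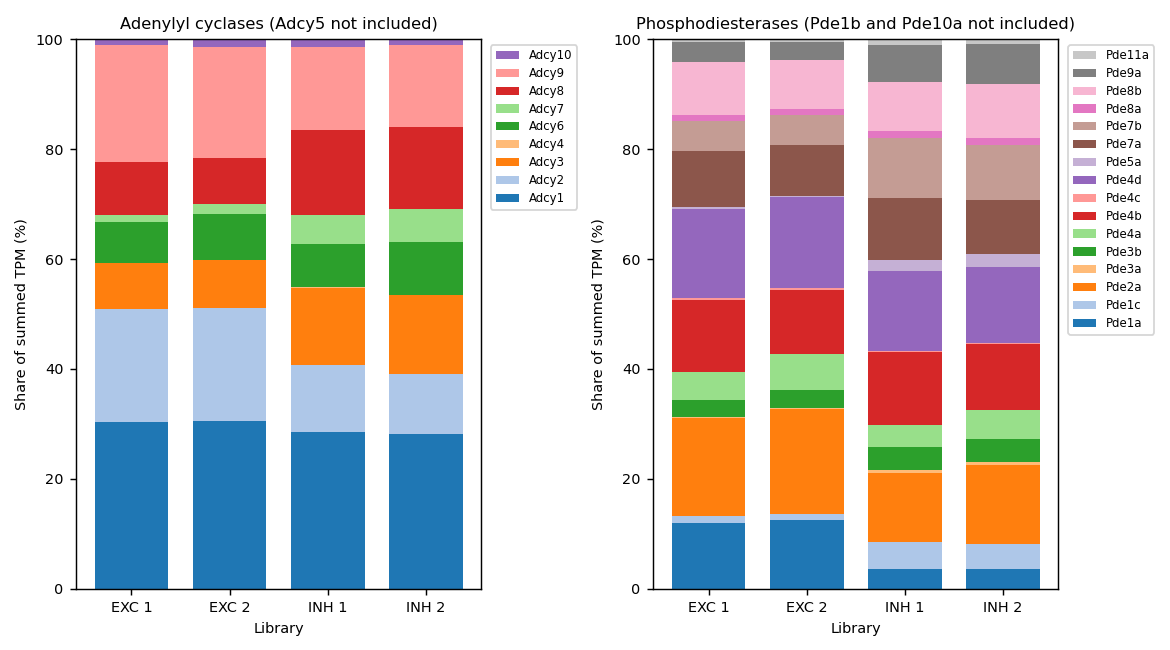
Share of the summed TPM (%) taken by each listed adenylyl cyclase (left) and phosphodiesterase (right) in each library, as stacked bars with the excitatory libraries (EXC) left of the inhibitory ones (INH). Adcy2 takes 20.7% and 20.5% of the cyclase bars in excitatory against 12.3% and 10.9% in inhibitory libraries, and Pde1a 12.0% and 12.6% of the phosphodiesterase bars against 3.63% and 3.57%.

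The listed phosphodiesterases summed to 999.7 and 1069 TPM in excitatory and 929 and 956 TPM in inhibitory libraries. The cAMP-specific enzymes took 61.2% and 59.8% of this in excitatory and 64.3% and 62.4% in inhibitory libraries, and the dual ones 34.9% and 36.7% against 26.8% and 28.0%. Here too the genes left out by rule matter. Pde10a, the abundant striatal dual phosphodiesterase, stood at 139 and 174 TPM in excitatory against 368 and 387 TPM in inhibitory libraries. With Pde10a and Pde1b counted, phosphodiesterase TPM summed to 1215 and 1334 in excitatory and 1501 and 1569 in inhibitory libraries, and the cAMP-specific share was 50.3% and 47.9% against 39.8% and 38.0%. The order of the groups in total TPM and in the cAMP-specific share was therefore the opposite of that over the listed genes.

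The subunits of PKA, which releases its catalytic subunits when cAMP binds the regulatory ones, included none that passed the test. Limma called 0 of the 6, with 2 (Prkaca and Prkar2b) at an unadjusted p under 0.05. Prkar1a, the type I alpha regulatory subunit, stood at 211 and 216 TPM in excitatory and 207 and 195 TPM in inhibitory libraries. Its log2 fold change of 0.08 had a 95% interval from -0.14 to 0.31, and its promoter stretch with the full CRE is printed above. Prkar1b, the neuronal type I beta subunit, stood at 144 and 143 against 131 and 109 TPM, excitatory first. The type II subunits were lower. Prkar2b stood at 30.2 and 30.9 TPM in excitatory and 42.6 and 36.4 TPM in inhibitory libraries (limma adjusted p = 0.149), and Prkar2a between 18.7 and 21.4 TPM in all. Type I subunits took 87.9% and 87.7% of the regulatory TPM in excitatory libraries, against 84.3% and 84.0% in inhibitory libraries.

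Of the catalytic subunits, Prkacb stood at 119 and 119 TPM in excitatory and 140.3 and 120.4 TPM in inhibitory libraries, above Prkaca in every library. Prkaca stood at 51.5 and 45.8 TPM in excitatory against 58.5 and 64.2 TPM in inhibitory libraries, groups that did not overlap (log2 fold change -0.33, limma adjusted p = 0.141). Prkacb was 2.32 and 2.60 times Prkaca in excitatory and 2.40 and 1.88 times in inhibitory libraries, ranges that overlap. The PKA inhibitors, small proteins that block the free catalytic subunit, included 1 called gene of 3. Pkig (chromosome 2, 163658386 to 163726158, plus strand) stood at 41.4 and 56.7 TPM in excitatory and 28.9 and 28.0 TPM in inhibitory libraries, a 1.72-fold difference of means with a wide excitatory spread. Its log2 fold change was 0.75 ± 0.17 (limma adjusted p = 0.0442), and the call was lost with a pseudocount of 0.1 (0.0546), without the filter (0.107) or with an untrended variance prior (0.11).

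Pkia, the inhibitor first known from brain and muscle, stood at 32.6 and 36.2 TPM in excitatory against 46.7 and 47.1 TPM in inhibitory libraries. Its groups did not overlap, but the log2 fold change of -0.44 ± 0.12 missed the threshold (limma adjusted p = 0.0702). Pkib overlapped between groups, with 16.2 and 15.8 TPM in excitatory and 17.5 and 14.9 TPM in inhibitory libraries.

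**Figure D5:**
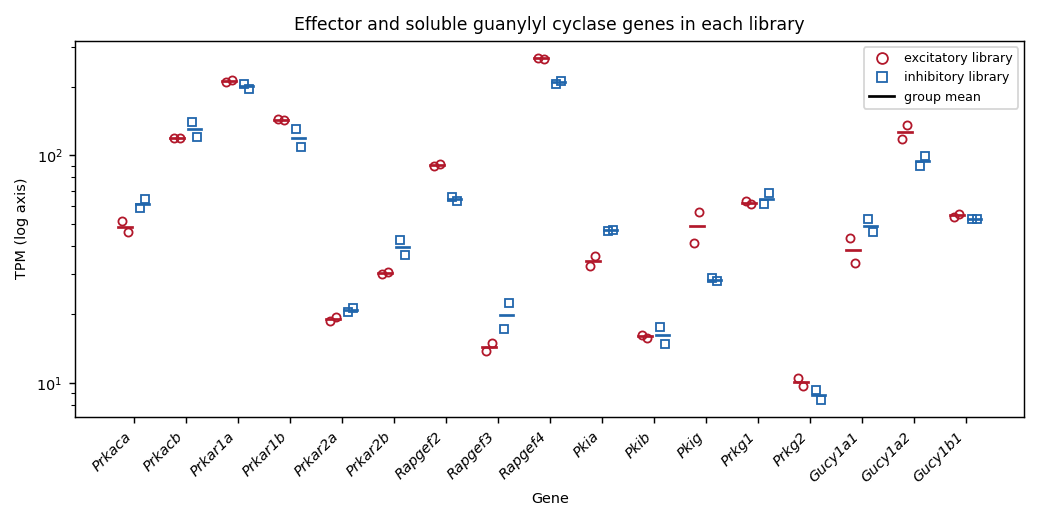
TPM (log axis) of the PKA subunits, Rap exchange factors, PKA inhibitors, cGMP-dependent kinases and soluble guanylyl cyclase subunits, with each library as an open symbol and the group mean as a bar, excitatory left of inhibitory. Rapgef4 and Prkar1a stand highest in both groups, and most pairs of group means lie close together beside those of the called phosphodiesterases.

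Rapgef4, which encodes the cAMP-gated Rap exchange factor EPAC2, was the most abundant of the 42 genes by mean TPM. It stood at 269 and 266 TPM in excitatory libraries and 206 and 213 TPM in inhibitory ones. The groups did not overlap, and its log2 fold change of 0.35 ± 0.09 missed the threshold (limma adjusted p = 0.0616) but passed it with median ratio scaling (0.0273). Rapgef3, encoding EPAC1, the form better known outside the brain, stood at 13.8 and 15.0 TPM in excitatory against 17.3 and 22.4 TPM in inhibitory libraries and was not called. Rapgef4 TPM was 19.5 and 17.7 times that of Rapgef3 in excitatory and 11.9 and 9.52 times in inhibitory libraries. Rapgef2, a related Rap exchange factor whose link to cAMP is less direct (chromosome 3, 79062516 to 79286517, minus strand), stood at 89.7 and 91.8 TPM in excitatory and 65.8 and 62.9 TPM in inhibitory libraries. Its difference of means was 1.41-fold (log2 fold change 0.49 ± 0.10, limma adjusted p = 0.0306), and the call ended when low genes were kept (0.0588) or with an untrended variance prior (0.124).

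On the side of cGMP synthesis and response, limma called 0 of the 5 listed genes, with 1 (Gucy1a2) at an unadjusted p under 0.05. Soluble guanylyl cyclase is a dimer of an alpha and a beta subunit. Gucy1b1, the shared beta subunit, stood at 53.6 and 55.3 TPM in excitatory and 52.3 and 52.3 TPM in inhibitory libraries, a log2 fold change of 0.06 with a 95% interval from -0.20 to 0.31. Gucy1a2, one alpha subunit, stood at 119 and 136 TPM in excitatory against 90.1 and 99.2 TPM in inhibitory libraries. Its log2 fold change of 0.42 ± 0.12 missed the threshold (limma adjusted p = 0.0695) and passed it with quantile normalization (0.037) and with median ratio scaling (0.0236). Gucy1a1, the other alpha subunit, had a negative log2 fold change of -0.35, with 43.5 and 33.6 TPM in excitatory and 52.3 and 46.0 TPM in inhibitory libraries, and was not called (limma adjusted p = 0.223). The ratio of Gucy1a2 to Gucy1a1 TPM was 2.73 and 4.04 in excitatory and 1.72 and 2.16 in inhibitory libraries. Gucy1a1 and Gucy1b1 lie 17.7 kb apart on chromosome 3, both on the minus strand. Of the cGMP-dependent kinases, Prkg1 stood at 63.1 and 60.9 TPM in excitatory and 61.0 and 68.4 TPM in inhibitory libraries, and Prkg2 at 10.5 and 9.67 against 9.27 and 8.43 TPM. Neither was called, and the groups of Prkg1 overlapped.

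Other genes of these pathways were read from the same fit, in which 12.0% of all tested genes were called. All 3 genes that the rule leaves out were higher in inhibitory nuclei, with log2 fold changes of -1.84 ± 0.10 for Adcy5, -1.35 ± 0.13 for Pde1b and -1.27 ± 0.13 for Pde10a (limma adjusted p = 0.00149, 0.00359 and 0.00455). Of 7 G protein alpha subunits that act on adenylyl cyclase or belong to the same class, 1 was called. This was Gnal, the stimulatory subunit of olfactory and striatal neurons, at 75.2 and 72.2 TPM in excitatory against 185 and 184 TPM in inhibitory libraries (log2 fold change -1.31 ± 0.09, limma adjusted p = 0.00212). The list's median log2 fold change was -0.11. Gnas, the general stimulatory subunit, stood at 211 and 141 TPM in excitatory and 254 and 252 TPM in inhibitory libraries, and was not called.

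Of 15 tested A-kinase anchoring proteins, which hold PKA at set places in the cell, 3 were higher in excitatory nuclei and 1 was called the other way, with a list median log2 fold change of -0.08. Sphkap, an anchor of type I PKA, stood at 117 and 114 TPM in excitatory against 75.2 and 72.0 TPM in inhibitory libraries (limma adjusted p = 0.0125). Akap13 stood at 70.8 and 71.5 TPM in excitatory against 45.4 and 45.1 TPM in inhibitory libraries (limma adjusted p = 0.0155). Akap6, the anchor of the nuclear envelope, stood at 116 and 115 TPM in excitatory and 88.1 and 86.6 TPM in inhibitory libraries (limma adjusted p = 0.0458). Akap9, the centrosomal and Golgi anchor, was the 1 called toward inhibitory nuclei, at 81.6 and 92.6 TPM in excitatory against 152 and 185 TPM in inhibitory libraries (limma adjusted p = 0.0101).

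Of 3 tested nitric oxide genes, Nos1ap, an adaptor of neuronal nitric oxide synthase, was higher in excitatory nuclei, at 134 and 189 TPM in excitatory and 74.1 and 82.8 TPM in inhibitory libraries (limma adjusted p = 0.0188). Nos1, the synthase itself, stood at 8.78 and 9.77 TPM in excitatory and 15.2 and 13.1 TPM in inhibitory libraries and was not called. Of 8 tested genes listed as other effectors or their relatives, 1 was called. This was Rapgef5, a relative of the Rap exchange factors above, at 212 and 255 TPM in excitatory against 102 and 101 TPM in inhibitory libraries (limma adjusted p = 0.00425). Whether it responds to cAMP was not tested. Limma called 0 of 4 further guanylyl cyclases (2 at an unadjusted p under 0.05) and 0 of 5 genes with a PDE6 symbol (0 at an unadjusted p under 0.05).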

How the data were processed

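RNA of sorted nuclei was measured in 2 excitatory and 2 inhibitory libraries. The authors deposited 1 table of TPM values with 1 column per library, and columns were matched to samples by the column names in the labels. The build mm10 and the tools HISAT2 2.2.1, StringTie 2.2.1, fastp 0.23.4 and Bowtie2 2.3.5 are named in the submitters' processing notes. Their roles and the annotation release were not found in the sources used here. TPM keeps no depth, so no counting interval was computed.

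The scale was log2(TPM + 1), with a pseudocount of 1 that understates fold changes of low genes. Genes reaching 1 TPM in 2 or more libraries were fitted with limma 3.58.1 in R 4.3.3 (variance trend, 2 residual degrees of freedom, prior worth 4.04), two-sided, with Benjamini-Hochberg adjustment over all 26055 genes. The fit was tested on simulated data. A fold is a ratio of mean TPM. Alternatives were other pseudocounts, filters, scalings and variance priors, a replicate block and each library left out. No column was a copy of another. Positions came from GENCODE M21, matched by identifier for 99.6% of tested genes, and promoters from RefSeq. Plots used matplotlib 3.10.9 (Python 3.11.15). The members and gene lists were chosen with earlier results of these data known. Named genes are all 42 members, the 3 genes left out, up to 4 called genes of smallest p per pathway list, Slc17a7, Gad1 and Gad2, with Slc17a6, Gbx2, Gnas, Nos1, Gm45837 and Cenpo named after their values were seen. Of the listed pathway symbols, Akap2 matched no row.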

Additional observations from a re-analysis of the deposited data

How the results depend on the processing

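Of the 13 called members, 7 (Adcy2, Adcy9, Pde1a, Pde1c, Pde5a, Pde7b and Pde9a) kept their call under all 9 alternatives that used every library. Without the filter on low values, where 37740 genes were tested, 666 genes were called toward excitatory and 740 toward inhibitory nuclei, with 4 members among the first (1414, 1725 and 7 in the report). With an untrended variance prior, 3 members were higher in excitatory nuclei. The replicate numbers are shared between groups only as numbers, with a correlation of 0.096 between deviations of same-numbered libraries. A replicate block gave 11 members higher in excitatory nuclei, adding Pde4a, Pde4d, Gucy1a2 and Rapgef4, and added Pkia on the inhibitory side.

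With 1 library left out on the same genes, the calls numbered 0 in each direction (smallest adjusted p between 0.0545 and 0.0664). With the filter applied to the other 3 libraries, a setting chosen after seeing the data, calls returned. Leaving out excitatory 1, excitatory 2, inhibitory 1 and inhibitory 2 in turn gave 813, 604, 893 and 1039 genes toward excitatory and 1064, 1085, 871 and 800 toward inhibitory nuclei. Members numbered 6, 3, 3 and 4 toward excitatory and 5, 5, 5 and 4 toward inhibitory nuclei, and the 7 named above were called each time.

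Directions turned for 4 uncalled members. Pde8a had a log2 fold change of 0.039 with quantile normalization and 0.013 with median ratio scaling, Pkib 0.064 and 0.061, and Prkg1 0.017 with median ratio scaling. With a library left out, Pde7a ranged from -0.060 to 0.076 (-0.018 without excitatory 1), Pde8a from -0.17 to 0.052, Pkib from -0.12 to 0.10 (0.0083 without excitatory 2) and Prkg1 from -0.14 to 0.023. The cause was not tested. Depth is unknown, so counting error of low genes such as Pde3a could not be given.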
